A study of Mus musculus with 14 samples.

Results

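AP-1 is a transcription factor made of paired basic leucine zipper (bZIP) proteins, and 10 genes of AP-1 and of the early response to stimulation are described here in mouse muscle stem cells of different ages and strains. They are Fos, Fosb, Fosl1 and Fosl2 (the Fos family), Jun, Junb and Jund (the Jun family), the bZIP factor Atf3, the zinc finger factor Egr1, and Ier2. Members were taken by name: every array probe, apart from control probes, that the array design assigns to one of these genes was used. This gave 11 probes, of 55681 on the array, for 10 of the 32863 genes tested. Fosl2 has 2 probes and each other gene has 1. All 11 probes were well above background on 14 of 14 arrays, so no member was lost to the filter on dim probes and every level below is a measured one.

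The cells are satellite cells, sorted from dissociated skeletal muscle for integrin alpha 7 and CD34 and against CD31, CD45, CD11b and Sca1. Muscles were not injured: the series set out to compare satellite cells of resting muscle in normal ageing and in a strain that ages early. There are 3 Young arrays (C57BL/6 mice of 2, 2 and 3 months), 3 Old arrays (C57BL/6, 22, 23 and 24 months) and 2 Geriatric arrays (C57BL/6, 30 months for replicate 1 and 29 months for replicate 3), with 3 arrays of SAMP8 mice, a senescence-prone strain, and 3 of SAMR1 mice, its senescence-resistant counterpart, all of 12 months. All 14 samples are labelled male, and no group carries a transgene or received a treatment by the labels. Replicate number 2 of the Geriatric group is not used here. By their labels the arrays are biological replicates, whether of 1 mouse or of a pool is not said, and p-values measure the spread between these samples.

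As background, Fos and Jun proteins pair through their leucine zippers and bind short DNA elements in the promoters and enhancers of genes for growth, matrix turnover and inflammation. Fos proteins need a partner, whereas Jun proteins can also pair with each other. Many genes of this set are immediate early genes: kinase signalling through SRF, its Ets-type cofactors and CREB switches them on within minutes and without new protein synthesis. In satellite cells they are known to be induced when the cells leave quiescence and also while muscle is dissociated for sorting, and levels in sorted cells can hold both.

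Levels are given as the log2 signal of the probe minus the log2 75th percentile of all probes on the same array, so a level of 0 is the signal at that percentile and a difference of 1 is a 2-fold difference. A probe's brightness depends on its sequence, and levels are compared between arrays for a given probe, never between probes. Between 77.1% and 88.8% of probes were well above background on an array, and no spot was saturated. The array of Geriatric 1 had 969 outlier spots, against 94 to 255 on the others. The Fos probe is printed in 10 spots, whose levels had an SD of 0.01 to 0.11 within an array; 3 of its spots over all arrays were outliers and were left out.

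Some facts of the samples touch every comparison of Geriatric cells. Xist, the RNA that coats the inactive X chromosome of female cells, had a mean level of 5.69 in Young and 5.26 in Old samples, and was above background on 0 of 2 Geriatric, 3 of 3 SAMP8 (mean level −4.14) and 1 of 3 SAMR1 arrays. The Y-linked genes Ddx3y, Uty and Kdm5d were above background on none of the Young or Old arrays and on all Geriatric, SAMP8 and SAMR1 arrays. These transcripts go against the male label in Young and Old samples. A difference between Geriatric and Old or Young cells therefore goes with this division as well as with age, and the effects cannot be told apart. All 12 satellite cell markers examined, among them Pax7, Itga7 and Cd34, were above background on 14 of 14 arrays. Genes of the proteins sorted against were also above background on every array: Pecam1 (CD31) lay between −4.95 and 3.80, Ptprc (CD45) between −2.34 and −1.49, Itgam (CD11b) between 7.42 and 8.70, and Ly6a (Sca1) between −4.76 and 1.06. In sorted bulk RNA, fewer cells of a type and less RNA per cell cannot be told apart.

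The promoters of Fos, Fosl2 and Junb are shown because Fos and Fosl2 differed in opposite directions between Geriatric and Old cells, while Junb set the Young arrays apart. Sequences are the 250 bases before the start of each gene in the RefSeq table for GRCm38.p6, on the strand of the gene. Capitals mark TGACG, the first letters of the cyclic AMP response element (CRE), or the Egr binding letters GCGNGGGCG.
Fos, chr12:85473640-85473889, plus strand: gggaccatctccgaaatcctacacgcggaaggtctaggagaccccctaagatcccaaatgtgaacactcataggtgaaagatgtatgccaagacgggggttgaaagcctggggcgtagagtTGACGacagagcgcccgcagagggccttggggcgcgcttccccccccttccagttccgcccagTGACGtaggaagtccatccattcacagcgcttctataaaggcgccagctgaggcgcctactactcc
Fosl2, chr5:32136222-32136471, plus strand: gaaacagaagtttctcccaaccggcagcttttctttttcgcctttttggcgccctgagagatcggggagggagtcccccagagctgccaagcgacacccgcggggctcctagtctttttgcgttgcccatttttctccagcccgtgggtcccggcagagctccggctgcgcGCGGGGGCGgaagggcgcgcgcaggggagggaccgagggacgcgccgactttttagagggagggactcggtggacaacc
Junb, chr8:84978749-84978998, minus strand: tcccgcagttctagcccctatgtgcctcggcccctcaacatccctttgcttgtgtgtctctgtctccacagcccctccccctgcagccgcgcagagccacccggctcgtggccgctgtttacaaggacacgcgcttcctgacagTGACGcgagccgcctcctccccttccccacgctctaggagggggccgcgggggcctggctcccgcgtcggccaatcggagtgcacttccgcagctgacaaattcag

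The Fos window held TGACG at 129 and at 66 bases before the start, the Junb window held it at 106 bases, and the Fosl2 window held the Egr letters at 79 bases before the start. Among 10 members, 7 had a promoter in the table (Fos, Fosb, Fosl2, Jun, Junb, Jund and Atf3). Windows of 300 bases (250 before and 50 after the start) were searched on both strands. TGACG, which also lies inside the full CRE, was found in 4 of 7 member windows (Fos, Fosb, Junb and Atf3) and in 20.8% of the 32851 promoters of the table. The Egr letters were found in 2 of 7 (Fosb and Fosl2) and in 5.55% of all promoters. The full CRE (TGACGTCA), the TRE (TGACTCA, the element AP-1 is best known to bind) and the CArG box bound by SRF were in 0 of 7 member windows and in 1.79%, 5.2% and 1.63% of all promoters. These are matches of letters within the windows only.

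Fos, the founding member of its family and a partner of all Jun proteins, was read by a probe at chr12:86817900-86817959 (mm9, plus strand). Its levels were 4.35, 4.56 and 4.25 on the Young arrays, 3.72, 3.37 and 3.80 on the Old arrays, 5.04 and 4.82 on the Geriatric arrays, 4.82, 4.71 and 5.14 on the SAMP8 arrays, and 5.12, 5.03 and 4.93 on the SAMR1 arrays. The 3 Old arrays were the lowest of all 14, the Young arrays came next, and the Geriatric, SAMP8 and SAMR1 arrays lay above both and overlapped each other. The order of the group means was SAMR1 (5.03), Geriatric (4.93), SAMP8 (4.89), Young (4.39) and Old (3.63). Over all arrays the level spanned 1.77, a 3.42-fold range, against an SD within groups of 0.18.

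Fosl1, which encodes Fra-1, a Fos-family protein without the strong activation domain of Fos, ran the other way. The probe lies at chr19:5455496-5455555 (mm9, plus strand). Levels were −2.41, −0.72 and −1.89 on the Young arrays, −0.56, 0.50 and 0.71 on the Old arrays, −2.56 and −3.95 on the Geriatric arrays, −2.80, −3.55 and −3.76 on the SAMP8 arrays, and −4.99, −3.16 and −3.40 on the SAMR1 arrays. The Old arrays were the 3 highest of 14 and the Young arrays the next 3, with no overlap between Young and any of the groups below it. Fosl1 had the widest range of the set, 5.70 or 51.8-fold, and also the widest spread within groups, with an SD of 0.81. The gap from the lowest Old array (−0.56) to the highest of the rest (Young 2, −0.72) was narrower than that spread.

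Fosl2, encoding the related Fra-2, has probes at chr5:32455088-32455147 and chr5:32460076-32460135 (mm9, plus strand), which start at base 738 and base 5726 of its transcript. The brighter one, used as the value of the gene, is printed because the probes differed in the comparisons below.
Fosl2 probe, chr5:32455088-32455147: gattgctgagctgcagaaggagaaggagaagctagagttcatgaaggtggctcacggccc
Its levels were 4.05, 4.34 and 4.09 on the Young arrays, 4.52, 4.26 and 4.40 on the Old arrays, 3.74 and 3.59 on the Geriatric arrays, 3.82, 3.94 and 4.05 on the SAMP8 arrays, and 4.23, 4.27 and 4.03 on the SAMR1 arrays. The Geriatric arrays were the 2 lowest of 14, below the lowest SAMP8 array at 3.82. With the downstream probe the levels were 1.61, 2.31 and 2.00 in Young, 2.33, 2.11 and 2.30 in Old, 2.53 and 1.82 in Geriatric, 1.55, 2.00 and 2.35 in SAMP8, and 2.21, 2.38 and 1.88 in SAMR1 samples. On that probe Geriatric 1 was the highest of 14 arrays and every group overlapped the others.

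Fosb, a Fos relative that can also be made as a short form lacking activation sequence, varied little. Its probe lies at chr7:19888168-19888227 (mm9, minus strand). Levels were 8.45, 8.53 and 8.49 in Young, 8.32, 8.27 and 8.09 in Old, 8.47 and 7.83 in Geriatric, 8.12, 8.32 and 8.20 in SAMP8, and 8.27, 8.26 and 8.21 in SAMR1 samples. Young arrays lay above all Old, SAMP8 and SAMR1 arrays, and Geriatric 1 lay within the Young range while Geriatric 3 was the lowest of 14.

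**Figure D1:**
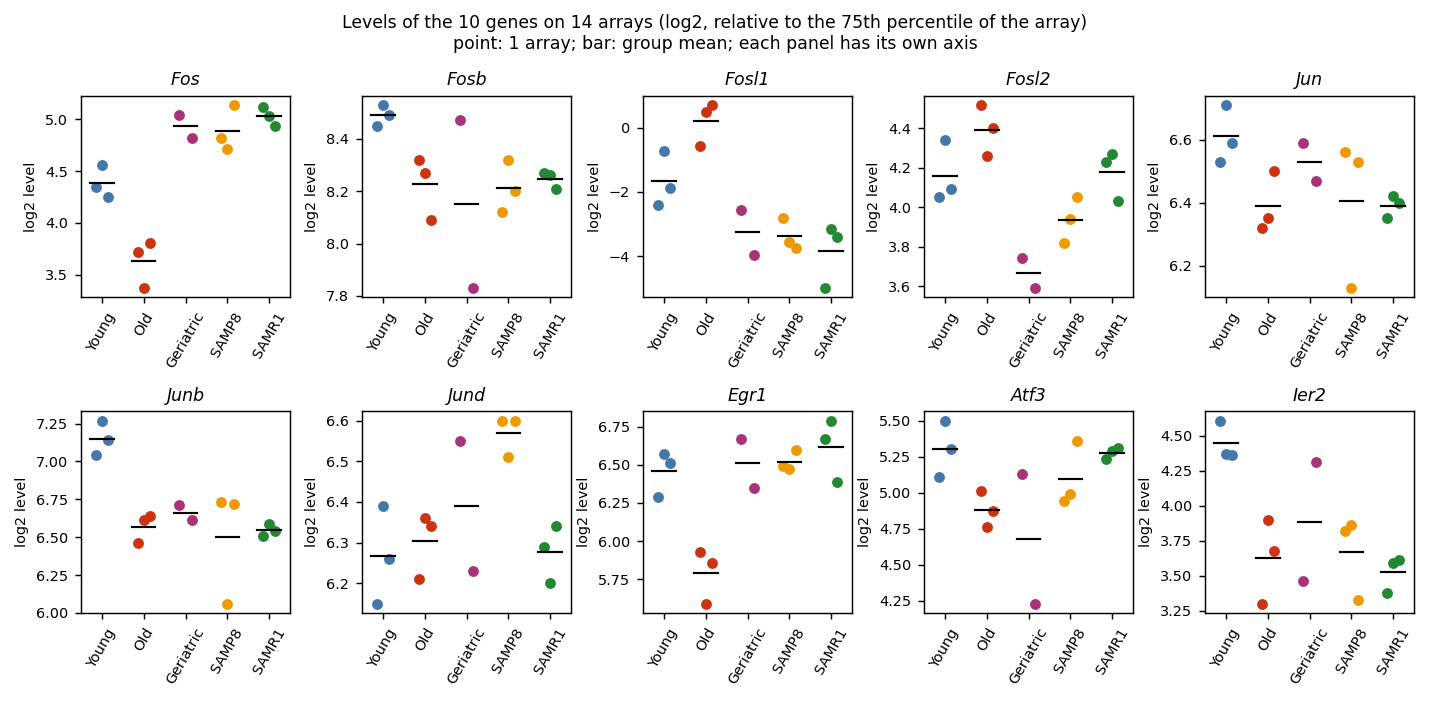
Level of each gene on 14 arrays (vertical axis: log2 signal relative to the 75th percentile of the array; each panel has its own axis), with a point per array and a bar at the group mean. Old arrays are the 3 lowest for Fos and Egr1 and the 3 highest for Fosl1, and Young arrays are the 3 highest for Junb and Ier2. Geriatric arrays are the 2 lowest for Fosl2, shown by its brighter probe only.

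In the Jun family, Junb separated Young cells from all others. Junb, which can dampen the activity of Jun when both are present, was read at chr8:87501881-87501940 (mm9, minus strand) by this probe, shown because the Young arrays stood apart on it.
Junb probe, chr8:87501881-87501940: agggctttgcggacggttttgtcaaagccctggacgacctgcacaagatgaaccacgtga
Its levels were 7.04, 7.27 and 7.14 on the Young arrays, 6.46, 6.61 and 6.64 on the Old arrays, 6.71 and 6.61 on the Geriatric arrays, 6.73, 6.06 and 6.72 on the SAMP8 arrays, and 6.51, 6.59 and 6.54 on the SAMR1 arrays. The 3 Young arrays were the highest of 14, the next being a SAMP8 array at 6.73, and the other 4 groups lay between 6.06 and 6.73. The lowest array was SAMP8 2, at 6.06, while the other SAMP8 arrays were the highest outside the Young group.

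Jun, the main activating partner of Fos, and Jund, which in many resting cells is present without stimulation, had the narrowest ranges of the set. Jun (probe at chr4:94716928-94716987, mm9, minus strand) was at 6.53, 6.71 and 6.59 in Young, 6.32, 6.35 and 6.50 in Old, 6.59 and 6.47 in Geriatric, 6.56, 6.13 and 6.53 in SAMP8, and 6.35, 6.42 and 6.40 in SAMR1 samples. Young arrays lay above the Old and SAMR1 arrays and overlapped the Geriatric and SAMP8 ones, over a total range of 0.58. Jund (probe at chr8:73224436-73224495, mm9, plus strand) was at 6.15, 6.39 and 6.26 in Young, 6.21, 6.36 and 6.34 in Old, 6.55 and 6.23 in Geriatric, 6.60, 6.51 and 6.60 in SAMP8, and 6.29, 6.20 and 6.34 in SAMR1 samples. The 4 highest Jund arrays were the SAMP8 arrays and Geriatric 1, and the total range was 0.45.

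Egr1 is a zinc finger factor that SRF and its cofactors switch on with Fos. Its probe lies at chr18:35024395-35024454 (mm9, plus strand). Levels were 6.29, 6.57 and 6.51 in Young, 5.93, 5.59 and 5.86 in Old, 6.67 and 6.35 in Geriatric, 6.49, 6.47 and 6.60 in SAMP8, and 6.67, 6.79 and 6.39 in SAMR1 samples. As for Fos, the Old arrays were the 3 lowest of 14; unlike for Fos, the Young arrays overlapped the Geriatric, SAMP8 and SAMR1 arrays.

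Atf3, a stress-induced bZIP factor that pairs with Jun proteins and often represses, was read at chr1:192994547-192994606 (mm9, minus strand). It was at 5.11, 5.50 and 5.30 in Young, 5.01, 4.76 and 4.87 in Old, 5.13 and 4.23 in Geriatric, 4.94, 4.99 and 5.36 in SAMP8, and 5.23, 5.29 and 5.31 in SAMR1 samples. Geriatric 3 was the lowest of 14 while Geriatric 1 lay within the Young range, and Old arrays lay below Young and SAMR1 arrays.

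Ier2, an immediate early gene whose product is found in the nucleus, was read at chr8:87186214-87186273 (mm9, minus strand) by the probe shown here, again for the separation of the Young arrays.
Ier2 probe, chr8:87186214-87186273: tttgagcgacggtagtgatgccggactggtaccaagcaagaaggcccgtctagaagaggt
Levels were 4.61, 4.37 and 4.36 in Young, 3.30, 3.90 and 3.68 in Old, 3.46 and 4.31 in Geriatric, 3.82, 3.86 and 3.33 in SAMP8, and 3.38, 3.59 and 3.61 in SAMR1 samples. Young arrays were the 3 highest of 14, with Geriatric 3 next at 4.31 and Geriatric 1 within the Old range.

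The members thus fell into different patterns across the same arrays. The Old arrays stood below the other 11 for Fos and Egr1 and above them for Fosl1, which is 3 of 10 members; 9.64% of all genes had the Old arrays on 1 side of the other 11. Young arrays stood above the other 11 for Junb and Ier2, 2 of 10 members, against 2.13% of all genes with the Young arrays on 1 side. No other group stood apart in this way except Geriatric, for Fosl2 by its brighter probe only. The share of all genes with the Geriatric arrays on 1 side was not counted.

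**Figure D2:**
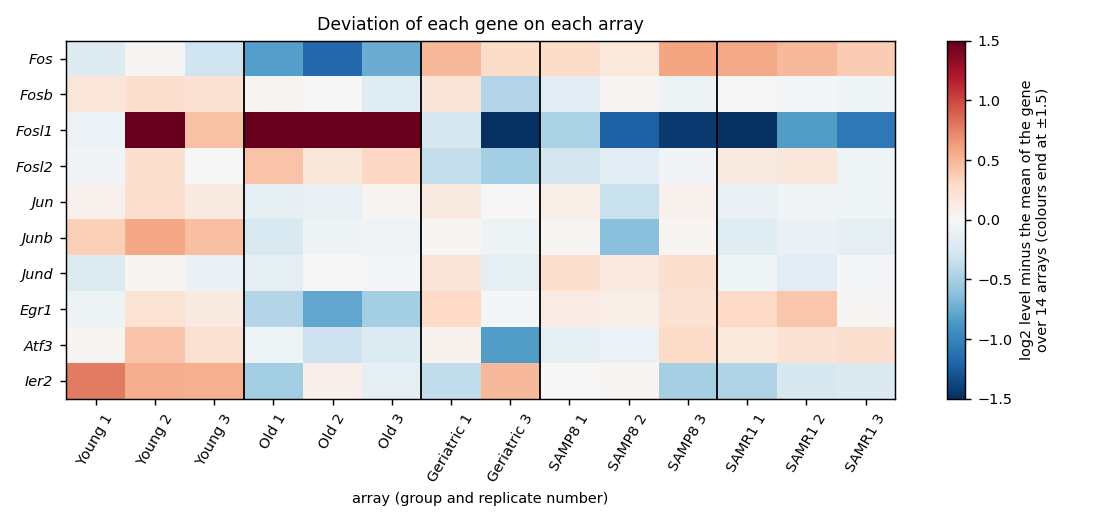
Each cell is the log2 level of a gene (rows) on an array (columns) minus the mean of the gene over 14 arrays, in red above and blue below the mean, with colours ending at 1.5 on either side. The Old columns are blue for Fos and Egr1 and red for Fosl1, and the Young columns are red for Junb and Ier2.

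A first test asked whether a gene differed anywhere among the 5 groups. Age, strain and the sex-linked division described above cannot be told apart in it. For Fos the Young and Old arrays all lay below the other arrays, and for Fosl1 all above, along the sex-linked division. The share of all genes that split in this way was not counted. The limma F test, with Benjamini-Hochberg adjustment over 32863 genes, called 3 of 10 members, beside 27.2% of all genes: Fos (adjusted p = 0.0015), Fosl1 (adjusted p = 0.00273) and Egr1 (adjusted p = 0.0276). The next were Fosl2 (adjusted p = 0.0642), Ier2 (adjusted p = 0.0778) and Junb (adjusted p = 0.101). With the slide as a block 5 members were called, and within slide 2 alone 0 were. The 27.2% of all genes belongs to the fit without a block, and no such share is given here for these settings.

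The comparison of Old with Young cells asks what happens between adulthood and old age. In Old cells 7 of the 10 members had every array below every Young array (Fos, Fosb, Jun, Junb, Egr1, Atf3 and Ier2) and 1 had every array above (Fosl1); 21.5% of all genes had groups that did not overlap. None of the 10 passed limma's test at an adjusted p under 0.05, beside 1.44% of all genes called, although 5 had an unadjusted p under 0.05, as did 16.9% of all genes. Fos averaged 3.63 ± 0.23 in Old and 4.39 ± 0.16 in Young cells (SD, n = 3 each), a log2 difference of −0.76 ± 0.19 (SE, 1.69-fold lower, adjusted p = 0.0779). Egr1 averaged 5.80 ± 0.18 in Old and 6.46 ± 0.15 in Young cells, a difference of −0.66 ± 0.18 (1.58-fold lower, adjusted p = 0.101).

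Among the others, Ier2 averaged 3.63 ± 0.30 in Old and 4.44 ± 0.14 in Young cells, a log2 difference of −0.82 ± 0.25 (adjusted p = 0.139). Fosl1 averaged 0.22 ± 0.68 in Old and −1.67 ± 0.86 in Young cells, a difference of 1.89 ± 0.60 (3.72-fold higher, adjusted p = 0.144). Junb averaged 6.57 ± 0.10 in Old and 7.15 ± 0.12 in Young cells, a difference of −0.58 ± 0.20 (adjusted p = 0.164). These 5 are the members with an unadjusted p under 0.05. The remaining differences were −0.42 for Atf3, −0.26 for Fosb, −0.22 for Jun, 0.23 for Fosl2 and 0.03 for Jund, each with an adjusted p of at least 0.394. The median over the members was −0.34 and over all genes 0.06. Relative to the 0.06 of all genes Fos differed by −0.82, Egr1 by −0.72 and Fosl1 by 1.83; with arrays scaled by their median the median over all genes was −0.15.

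These Old versus Young calls depended on the processing. With the slide as a block, Fos (−0.84, adjusted p = 0.0322) and Egr1 (−0.73, adjusted p = 0.0439) passed the test. Each slide holds arrays of both groups: the Fos difference was −0.93 on slide 1 (adjusted p = 0.263) and −0.81 on slide 2 (adjusted p = 0.601), and for Egr1 these were −0.81 (adjusted p = 0.313) and −0.67 (adjusted p = 0.656). With a normexp background correction Fos (adjusted p = 0.0427), Egr1 (adjusted p = 0.0365) and Fosl1 (adjusted p = 0.0464) passed. For 9 of the 10 members the sign was kept in all 26 alternative settings, and for Jund in 23 of 26.

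Beside these values, limma called 1 marker of another cell type in Old cells. Pdgfrb, a receptor of pericytes and fibroblasts, was 2.45 ± 0.32 higher (adjusted p = 0.00609). It was 1 of 7 smooth muscle and pericyte markers, beside 1.44% of all genes called. The Pdgfrb level averaged −1.91 in Old and −4.35 in Young cells. The mean log2 level of the smooth muscle and pericyte list lay between 0.40 and 0.78 on Old and between −0.03 and 0.36 on Young arrays. Of its 7 markers 4 lay above 0 and 3 below, with a median of 0.18. The muscle fibre list was also apart, with mean levels between −2.11 and −1.74 on Old and between −2.70 and −2.15 on Young arrays; 8 of its 8 markers lay above 0 (median 0.44) and 0 were called. Of the satellite cell markers 0 of 12 were called by limma, with Pax7 at −0.69 ± 0.21 (adjusted p = 0.128). The part of these in the differences of the AP-1 genes was not tested.

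Between Geriatric and Old cells 4 of the 10 members differed, and they went in opposite directions. Fos and Egr1 were higher in Geriatric cells, and the Fos relatives Fosl1 and Fosl2 were lower. All 4 had groups that did not overlap, and the other 6 members overlapped; 54.9% of all genes did not overlap in this comparison, and 20.0% were called, 5.52% as higher and 14.4% as lower. The comparison carries the sex-linked division described above.

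Fos averaged 4.93 ± 0.16 in Geriatric (n = 2) and 3.63 ± 0.23 in Old cells (SD, n = 3), and rose by 1.30 ± 0.21 (SE, 2.46-fold, limma adjusted p = 0.00228). Egr1 averaged 6.51 ± 0.23 in Geriatric and 5.80 ± 0.18 in Old cells and rose by 0.71 ± 0.20 (1.64-fold, adjusted p = 0.0309). For both genes the Geriatric arrays overlapped the SAMP8 and SAMR1 arrays, which come from mice of 12 months. These strains also had the higher endothelial and mesenchymal marker levels given above. Fosl1 averaged −3.26 ± 0.98 in Geriatric and 0.22 ± 0.68 in Old cells, with a change of −3.48 ± 0.67 (11.1-fold lower, adjusted p = 0.00564). Fosl2 averaged 3.67 ± 0.11 in Geriatric and 4.39 ± 0.13 in Old cells, with a change of −0.73 ± 0.18 (1.65-fold lower, adjusted p = 0.0195).

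The Fosl2 call rests on its brighter probe. The downstream probe gave −0.07 ± 0.31 (adjusted p = 0.889 over 49918 probes), and the mean of both gave −0.40 (adjusted p = 0.243). The median change over all genes was −0.22 with the 75th percentile and 0.06 with the array median, and relative to the −0.22 Fos differed by 1.53, Egr1 by 0.94, Fosl1 by −3.25 and Fosl2 by −0.50. With the array median Fosl2 was no longer called (−0.44, adjusted p = 0.142). Of 25 alternative settings, Fos was called in 24, Fosl1 in 23, Egr1 in 19 and Fosl2 in 15, and the sign of all 4 was kept in all 25.

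No Geriatric array lies on slide 1. Within slide 2, which holds 2 Geriatric and 2 Old arrays, the changes were 1.17 for Fos (adjusted p = 0.0747), −3.33 for Fosl1 (adjusted p = 0.0692), −0.79 for Fosl2 (adjusted p = 0.138) and 0.61 for Egr1 (adjusted p = 0.216), and none was called. Leaving out a Geriatric array leaves a single one, which is then assumed to vary like the other groups. Without Geriatric 3 only Fos was called (1.41), with Fosl1 at −2.78, Fosl2 at −0.65 and Egr1 at 0.87. Without Geriatric 1 Fos (1.19) and Fosl1 (−4.17) were called, with Fosl2 at −0.80 and Egr1 at 0.55. Fosl2 was not called without Old 1 (adjusted p = 0.0613), nor Egr1 without Old 2 (adjusted p = 0.0961). The other members gave 0.26 for Ier2, 0.14 for Jun, 0.09 for Junb, 0.09 for Jund, −0.08 for Fosb and −0.20 for Atf3, with adjusted p-values of at least 0.537.

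Markers of other cells moved in this comparison too, where 5.52% of all genes were called higher and 14.4% lower. Leukocyte markers were lower for 3 of 11 (Lyz2, C1qb and Cd14), with a mean log2 level of the list between −2.50 and −2.01 on Geriatric and between −1.73 and −0.78 on Old arrays. Of the muscle fibre markers 1 of 8 fell: Myh2, which was above background on only 1 of 2 Geriatric arrays. The list levels lay between −3.07 and −2.90 on Geriatric and between −2.11 and −1.74 on Old arrays. Among 8 measured mesenchymal markers Thy1 fell by 2.26 and Dpt rose by 1.05. Of the satellite cell markers Myf5 rose by 2.34 and Spry1 by 1.68, and 9 of 12 lay above 0 (median 0.38). That list lay between 2.62 and 2.80 on Geriatric and between 1.95 and 2.53 on Old arrays. The part of these in the AP-1 results was not tested.

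**Figure D3:**
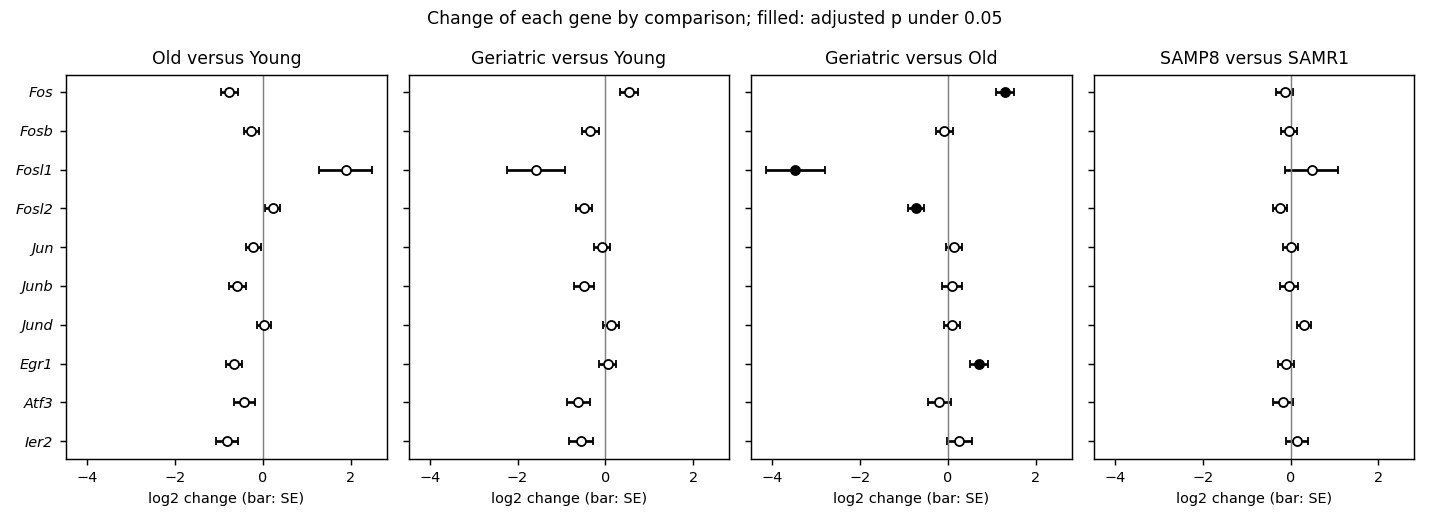
Log2 change of each gene with its standard error in 4 comparisons, filled where limma's adjusted p is under 0.05. The 4 filled points are Fos (1.30), Egr1 (0.71), Fosl2 (−0.73) and Fosl1 (−3.48) in Geriatric versus Old, and no point is filled in the other 3 panels.

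Geriatric and Young cells are the ends of the age series. In this comparison limma called 0 of 10 members, beside 4.19% of all genes, with 5 at an unadjusted p under 0.05, as were 21.9% of all genes. Groups did not overlap for 5 of 10 members (Fos all higher, Fosl1, Fosl2, Junb and Ier2 all lower), against 44.2% of all genes. Fos averaged 4.93 ± 0.16 in Geriatric and 4.39 ± 0.16 in Young cells, a difference of 0.54 ± 0.21 (adjusted p = 0.169). Egr1 averaged 6.51 ± 0.23 in Geriatric and 6.46 ± 0.15 in Young cells, a difference of 0.05 ± 0.20 (adjusted p = 0.900).

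The other 4 members with an unadjusted p under 0.05, besides Fos, were Fosl2 (−0.49 ± 0.18, adjusted p = 0.155), Atf3 (−0.62 ± 0.26, adjusted p = 0.195), Fosl1 (−1.58 ± 0.67, adjusted p = 0.200) and Junb (−0.49 ± 0.22, adjusted p = 0.224). Ier2 differed by −0.56 ± 0.28 (adjusted p = 0.273), Fosb by −0.34, Jund by 0.12 and Jun by −0.08. The median over the members was −0.41 and over all genes −0.18. The sign of the member median depended on the scaling. With quantile normalization these medians were 0.21 and −0.04, and with the authors' values 0.16 and −0.05. Among markers of other cells Pdgfrb (2.66 ± 0.35) and Dpt (1.48 ± 0.30) rose and Thy1 fell by 3.04. The smooth muscle and pericyte list lay between 0.48 and 0.87 on Geriatric and between −0.03 and 0.36 on Young arrays. Of its markers 4 of 7 lay above 0 (median 0.34) and 1 was called. The leukocyte list lay between −2.50 and −2.01 on Geriatric and between −1.67 and −1.30 on Young arrays, with 9 of 11 markers below 0 (median −0.69) and 0 called. The muscle fibre list lay between −3.07 and −2.90 on Geriatric and between −2.70 and −2.15 on Young arrays, with 6 of 8 below 0 and 0 called. The part of these markers in the values above was not tested. Old versus Young and Geriatric versus Young share the Young arrays, and Geriatric versus Old shares arrays with both, so the 3 age comparisons are not independent of each other.

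SAMP8 and SAMR1 cells were compared to ask whether the senescence-prone strain differs at 12 months. None of the 10 members was called by limma, beside 0.453% of all genes, and 0 of 10 had an unadjusted p under 0.05, against 8.33% of all genes. Jund alone had groups that did not overlap, all SAMP8 arrays being higher, against 13.1% of all genes; it averaged 6.57 ± 0.05 in SAMP8 and 6.27 ± 0.07 in SAMR1 cells (SD, n = 3 each), a difference of 0.30 ± 0.16 (adjusted p = 0.688). Fos averaged 4.89 ± 0.22 in SAMP8 and 5.03 ± 0.10 in SAMR1 cells, a difference of −0.13 ± 0.19 (adjusted p = 0.960), and Egr1 6.52 ± 0.07 in SAMP8 and 6.62 ± 0.20 in SAMR1 cells, a difference of −0.10 ± 0.18 (adjusted p = 0.978). Fosl1 differed by 0.48 ± 0.60, and the other 6 members by between −0.24 (Fosl2) and 0.14 (Ier2).

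Of the marker lists, Myod1 alone was called in this comparison, at 0.90 ± 0.17 higher in SAMP8 (adjusted p = 0.0429). The muscle fibre list had a mean level between −3.56 and −3.17 on SAMP8 and between −2.85 and −2.40 on SAMR1 arrays, with 7 of 8 markers below 0 (median −0.56). The Schwann cell list had a mean level between −1.90 and −0.25 on SAMP8 and between −0.06 and 0.71 on SAMR1 arrays, with 5 of 6 below 0 (median −1.13). In these lists the groups did not overlap, and in the next pair they did. Endothelial markers had a mean level between −0.43 and 2.31 on SAMP8 and between 1.34 and 2.61 on SAMR1 arrays, and red cell markers between −2.99 and 2.53 on SAMP8 and between 0.61 and 1.71 on SAMR1 arrays. All 9 endothelial markers (median −0.61) and all 5 measured red cell markers (median −1.48) lay below 0, and 0 were called. The part of these in the values above was not tested.

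Whether the age difference was itself different from the strain difference was tested by an interaction. For Old versus Young minus SAMP8 versus SAMR1, limma called 0 of 10 members, beside 0.371% of all genes, and 3 had an unadjusted p under 0.05 (11.6% of all genes did): Ier2 (−0.96 ± 0.36, adjusted p = 0.333), Fos (−0.63 ± 0.27, adjusted p = 0.400) and Egr1 (−0.56 ± 0.26, adjusted p = 0.432). For Geriatric versus Young minus SAMP8 versus SAMR1 it called 0 of 10, beside 1.73% of all genes, with Fos (0.67 ± 0.28, adjusted p = 0.274) and Fosl1 (−2.06 ± 0.90, adjusted p = 0.291) at an unadjusted p under 0.05 (16.3% of all genes). No member was called in either test. Geriatric versus Old was not set against the strain difference in this way.

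**Figure D4:**
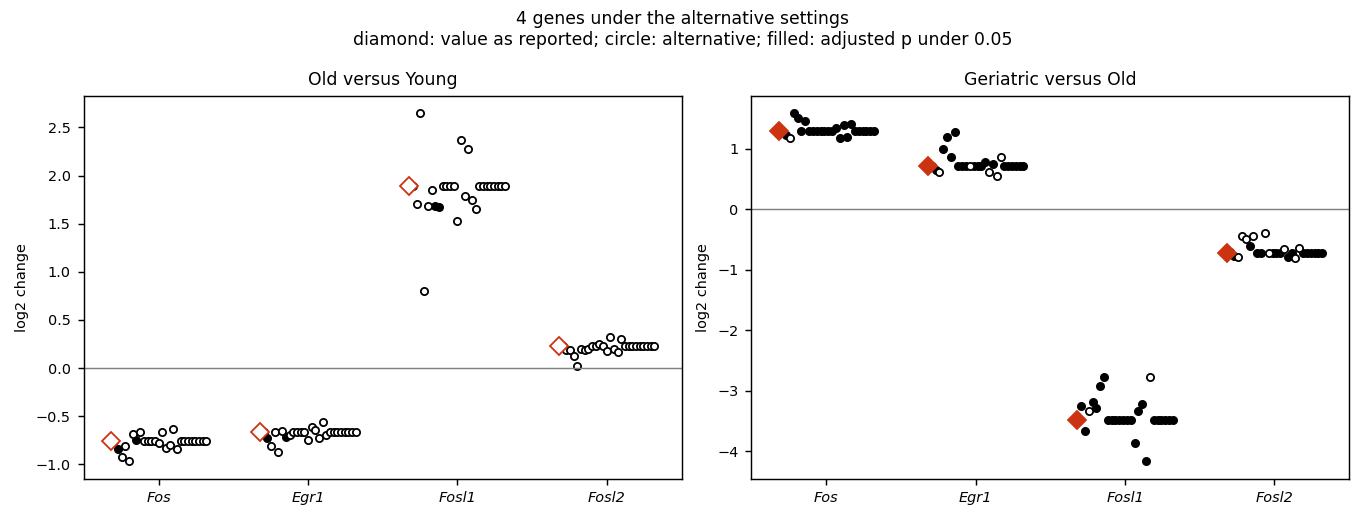
Log2 change (vertical axis) of 4 genes in Old versus Young and Geriatric versus Old under every setting: diamonds are the values as reported, circles the alternatives, filled where the adjusted p is under 0.05. Every point keeps the sign of its diamond, and in Geriatric versus Old the filled points number 24 of 25 alternatives for Fos and 15 of 25 for Fosl2.

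Other genes of the pathway were taken from lists made for this work and described by counts. Among 46 other immediate early genes limma called 0 in Old versus Young, where 33 of the 46 lay below 0 and the median was −0.20 (0.06 over all genes). The lowest adjusted p-values were those of Btg2, an antiproliferative gene (−0.62 ± 0.16, adjusted p = 0.0894), and of Cyr61 and Nr4a1 (−0.69 and −0.78, adjusted p = 0.172 for each). In Geriatric versus Old cells 3 of 46 rose and 3 fell, 13% of the list beside 20.0% of all genes. Hes1, a repressor that Notch induces, rose by 2.21 ± 0.24 (adjusted p = 0.000291), the kinase gene Sik1 by 1.55 ± 0.35 and Id1, an inhibitor of helix-loop-helix factors, by 0.98 ± 0.21. Nr4a2, an orphan nuclear receptor, had a change of −1.42 ± 0.23, Plk2, a polo-like kinase gene, of −1.59 ± 0.50 and the pseudokinase gene Trib1 of −1.40 ± 0.41. Against Young cells, Hes1 (1.64 ± 0.24) and Id1 (0.92 ± 0.21) rose and Nr4a2 fell by 1.85 in Geriatric cells. In SAMP8 versus SAMR1 0 of 46 were called.

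Of 25 other bZIP genes, some of which can pair with Fos or Jun proteins, limma called 0 in Old versus Young. Batf2 had the smallest adjusted p (1.73 ± 0.47, adjusted p = 0.106). In Geriatric versus Old cells 2 rose and 4 fell, 24% of the list beside 20.0% of all genes. Maf, a large Maf protein, rose by 1.51 ± 0.33 and Atf1, a CREB relative, by 1.05 ± 0.34. Atf4, a factor of the integrated stress response, had a change of −0.79 ± 0.20, Mafa of −0.66 ± 0.20 and the small Maf gene Mafg of −1.10 ± 0.27; Batf3 was also called but was not above background on either Geriatric array. Against Young cells Maf rose by 1.34 ± 0.33 and Ddit3, a stress-induced C/EBP relative, fell by 1.06 in Geriatric cells.

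The kinases upstream of AP-1 and SRF with its cofactors made a list of 32 genes. None was called in Old versus Young, where Map2k6, a kinase that activates p38, had the smallest adjusted p (−0.95 ± 0.22, adjusted p = 0.06). In Geriatric versus Old cells 6 of 32 rose and 0 fell, 18.8% of the list beside 20.0% of all genes called and 5.52% called higher. Among them were Mapk14 (p38 alpha, 0.99 ± 0.22, adjusted p = 0.0107), Map2k6 (0.80 ± 0.25), Map2k5 (0.76 ± 0.24), Rps6ka5, a nuclear kinase downstream of p38 (0.98 ± 0.31), and Atf1, which both lists hold. In Geriatric versus Young and in SAMP8 versus SAMR1 0 of 32 were called.

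Textbook target genes of AP-1 were measured for 20 of 24. In Old versus Young 0 were called, 14 of the 20 lay above 0 and the median was 0.21. The cytokine gene Il6 differed by 1.68 ± 0.38 (adjusted p = 0.0545) and the metallothionein gene Mt2 by 0.91 ± 0.22 (adjusted p = 0.0735). In Geriatric versus Old cells 3 of 20 fell and 0 rose, 15% of the list beside 14.4% of all genes called lower. Timp1, an inhibitor of matrix proteases, fell by 1.72, the growth factor gene Hbegf by 1.62 and Il6 by 1.40. The list median was −0.43, beside −0.22 over all genes. The protease genes Mmp9, Mmp10 and Mmp13 and the growth factor gene Ereg were on the array but did not pass the filter on dim probes.

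Heat shock genes, which respond to the warm dissociation of tissue, were followed beside the early response genes. In Old versus Young all 11 measured lay below 0, with a median of −0.80, and 0 were called. An unadjusted limma p under 0.05 was found for 10 of the 11, as for 16.9% of all genes. The smallest adjusted p-values belonged to Hspa1a (0.0648), Dnaja1 (0.0704) and Dnajb1 (0.0734). In Geriatric versus Young all 11 again lay below 0 (median −0.63) and Hspb1, a small heat shock protein gene, fell by 1.05 (adjusted p = 0.0316). In Geriatric versus Old 7 of 11 lay above 0 (median 0.19) and 0 were called. The AP-1 members and the heat shock genes thus had medians on the same side of 0 in Old versus Young, −0.34 and −0.80, and whether isolation differed between the groups was not tested.

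**Figure D5:**
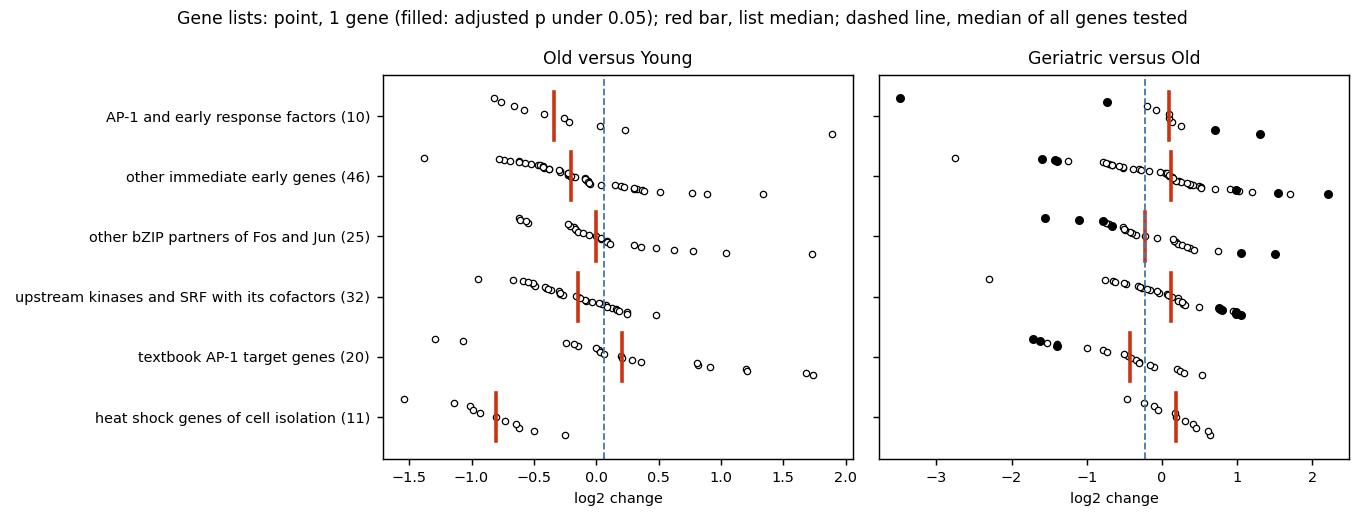
Log2 change (horizontal axis) of each gene of 6 lists in Old versus Young and in Geriatric versus Old, filled where limma's adjusted p is under 0.05, with a red bar at the list median and a dashed line at the median of all genes tested. In Old versus Young no point is filled and all 11 heat shock genes lie below 0; in Geriatric versus Old 6 of 32 upstream genes and 3 of 20 target genes are filled, beside 20.0% of all genes called.

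Genes whose levels followed a member most closely over the 14 arrays were found by Pearson's r among 18846 genes with a symbol, as a description with no test, since the arrays of a group share their condition and r mostly restates the order of the groups. For Fos these were Dek, Xiap and Sfxn3 (r = 0.97 for each). Dek, a chromatin protein gene, was at −0.97 to −0.64 in Young, −1.47 to −1.32 in Old, −0.51 to −0.21 in Geriatric, −0.30 to 0.22 in SAMP8 and −0.23 to −0.10 in SAMR1 samples, so that its Old arrays were again the lowest. For Egr1 they were Wnk1 (r = 0.95), the histone gene H3f3b (r = 0.95) and Nck1 (r = 0.94). Junb was followed by Hspbp1 (r = 0.90), Zfp827 (r = 0.90) and Gnl3 (r = 0.89), all of them higher on Young arrays than on every Old array. Jun had Man2a2 and Eif3m (r = 0.88 for each) and Ivns1abp (r = 0.87), and Atf3 had Cnot10 (r = 0.84), Shoc2 (r = 0.83) and Tnfaip3 (r = 0.81).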

How the data were processed

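RNA of sorted cells was amplified by whole transcriptome amplification and labelled with Cy3, per the labels' protocols. The deposited scanner files hold each spot's linear intensity from Agilent Feature Extraction 10.7.3.1, background-subtracted, per the file headers, with probe positions of mm9. The authors' deposited value table holds log2 values, which equalled a normexp (offset 50) and quantile normalization to within 1.17e-04.

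From the processed intensity, control and outlier spots were dropped, spots of a probe averaged, and log2 values reduced by each array's 75th percentile. A probe was kept if, in some group, 2 or more arrays had it well above background (49918 probes), and the brightest kept probe stood for its gene (32863 genes). limma 3.58.1 in R 4.3.3 (lmFit, eBayes, two-sided, 1 coefficient per group over 14 arrays, Benjamini-Hochberg over all genes, threshold 0.05) made 4 comparisons, 2 interactions and an F test; the shared spread had 2.36 prior degrees of freedom. The script was tested on simulated data.

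The arrays lie on 2 slides, read from array identifiers that the file headers bear out; slide 2 alone holds both Geriatric arrays. Replicate numbers recur across groups, but the correlation of same-numbered arrays' deviations was −0.25 to 0.19, and samples were not treated as paired. Members and lists were chosen with earlier results of these data known. Named genes are the 10 members, list genes that passed the test or otherwise up to 3 with the smallest p, and 3 genes most like each of Fos, Jun, Junb, Egr1 and Atf3; 1 gene that passed is not reported here. Alternatives tried were the background correction, scaling, the authors' log2 values, filters, the probe rule, the samples fitted, slide and replicate blocks, single slides, and each array left out.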

Additional observations from a re-analysis of the deposited data

How the results depend on the processing

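The number of members called in Geriatric versus Old cells was 4 as reported, 2 with only the compared groups in the fit, 0 within slide 2, and between 1 and 4 when each array was left out in turn. It fell to 1 without Geriatric 3 and to 2 without Geriatric 1, where the lone Geriatric array is assumed to vary like the other groups; Fos was called both times. In Old versus Young it was 0 as reported and 0 whichever array was left out, but 2 with the slide as a block (Fos and Egr1), 3 with the normexp background and 1 with the authors' values (Fosl1, adjusted p = 0.0463). For any difference among the 5 groups it was 3 as reported, 5 with the slide as a block, 0 within slide 2 and 2 to 4 when an array was left out. The share of all genes called in these alternatives is not given here, so the member counts cannot be set against it. The cause of these shifts was not tested. In Geriatric versus Young, SAMP8 versus SAMR1 and both interactions 0 members were called in every setting run.

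Samples were not treated as paired by replicate number. Of same-numbered pairs 5 of 26 correlated above 0.1, as did 11 of 52 differently numbered pairs. Only 3 of 14 arrays correlated best with their own number. With 2 or 3 arrays in a group these values cannot exclude a pairing. With the replicate block, 2 members (Fos and Fosl1) were called in Geriatric versus Old, where Fosl2 (adjusted p = 0.0544) and Egr1 (adjusted p = 0.0692) missed the threshold, and 237 genes were called in Old versus Young against 472 without it.

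Over all genes, Old versus Young gave 472 calls, but 729 with the slide as a block, 1036 with normexp, 773 with the authors' values, 43 with only the compared groups and 85 (without Old 1) to 793 (without Old 3) when an array was left out. Geriatric versus Old gave 6561, but 3001 with only the compared groups, 1553 within slide 2 and 1989 (without Geriatric 3) to 7309 when an array was left out. Higher calls made up 27.6% of the 6561, but 48.4% with the array median, 46.9% with quantile normalization and 42.9% with the authors' values, and the 4 called members split 2 higher and 2 lower as reported and 2 higher and 1 lower under these 3. With an array left out, Geriatric versus Young gave 414 (without Geriatric 3) to 1537 calls against 1377, SAMP8 versus SAMR1 gave 56 (without SAMR1 2) to 250 (without SAMP8 3) against 149, and the interactions gave 59 to 176 against 122 for Old and 268 to 774 against 568 for Geriatric.

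Members that changed sign were called neither as reported nor in the settings that changed the sign. In Geriatric versus Old, Fosb was 0.21 with the array median, 0.57 with quantile normalization and 0.53 with the authors' values, and Atf3 0.09, 0.11 and 0.01 under the same. Over the arrays left out in turn, Fosb lay between −0.40 and 0.24, Atf3 between −0.65 and 0.25, Ier2 between −0.17 and 0.68 and Jund between −0.08 and 0.25. In Geriatric versus Young, quantile normalization and the authors' values gave 0.38 and 0.32 for Fosb, 0.43 and 0.40 for Jun, and 0.04 and 0.01 for Junb; Egr1 was −0.08 with the slide block, −0.06 within slide 2 and −0.11 to 0.21 with an array left out, and Jund was 0 within slide 2 and −0.04 to 0.28 with an array left out. In Old versus Young, Jund was −0.18 with the array median, −0.12 within slide 2 and −0.02 to 0.10 with an array left out. In SAMP8 versus SAMR1, Jun was −0.25 with the authors' values and within slide 1, −0.22 with normexp, −0.05 with quantile normalization, −0.04 with the slide block and −0.06 to 0.15 with an array left out. There Fosb was 0.10 with normexp, 0.08 within slide 1 and −0.09 to 0.02 with an array left out, Fosl1 was −0.12 within slide 2 and −0.09 to 0.82 with an array left out, Junb was 0.13 within slide 2 and −0.15 to 0.18 with an array left out, and Ier2 was −0.02 within slide 2. The precision is limited by the number of arrays, 2 or 3 in a group.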
